A study of Mus musculus with 14 samples.

Results

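Collagen VI is described here through the genes of its 3 classical chains, Col6a1, Col6a2 and Col6a3, out of 40853 genes in the tables of a mouse lens epithelial line. The 3 genes were chosen by name after their levels in these libraries were known, because they differed between lines and with TGFβ. The levels by line and by treatment are therefore a description, with no test. The cells are αTN4-1, a line from the lens of transgenic mice transformed by a viral T antigen, and 7 stable derivatives were grown under neomycin selection. Each derivative gave 1 control library and 1 library after 24 h with TGFβ at 20 ng/mL in serum-free medium, 14 libraries in all. Whether control cells were also serum-free is not stated in the labels, so the effects of TGFβ and of serum withdrawal cannot be told apart.

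The line labelled Vector carries no CREB construct, and the 6 others are labelled as overexpressing a form of CREB, the transcription factor that binds cAMP response elements. WT-CREB and S133A-CREB have an unaltered basic leucine zipper (bZIP), the part that binds DNA and pairs the protein, and are called the intact lines below. KCREB and S133A-KCREB, the K lines, carry a form that does not bind its usual DNA element and blocks CREB by pairing with it. R314A-CREB and S133A/R314A-CREB, the R314A lines, carry a change in the zipper known to weaken binding of CRTC coactivators. S133A replaces the serine through which protein kinase A acts on CREB. Every construct is represented by 1 stable line, so a construct and the history of its line cannot be told apart. The control and TGFβ libraries of a line are 2 libraries of the same line and not independent samples of the construct.

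Collagen VI is a short-helix collagen of the extracellular matrix. Its α1, α2 and α3 chains, made by Col6a1, Col6a2 and Col6a3, fold into a heterotrimer that is assembled into dimers and tetramers inside the cell and into beaded microfilaments outside it. The filaments lie next to basement membranes, bind collagen IV, fibronectin and small proteoglycans, and are read by integrins and other receptors. The lens capsule that lens epithelial cells rest on is a basement membrane built mainly of collagen IV and laminin. TGFβ is known for driving lens epithelial cells towards a matrix-producing, contractile state.

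Col6a1 and Col6a2 are neighbours on the minus strand of mouse chromosome 10, at 76544626 to 76561878 and at 76431590 to 76459464 on GRCm39, with 85.2 kb between them. Col6a3 lies on chromosome 1, at 90694582 to 90771710, also on the minus strand. No other gene of the tables overlaps any of the 3. The promoter windows are shown because the first 2 chains had nearly the same order of levels across libraries. They run from 250 bases before to 50 bases after each annotated start, come from RefSeq on GRCm38.p6 (another build than that of the expression tables), and matched all 3 genes, with a second start for Col6a2. Capitals mark the matches to the motifs searched on both strands.
Col6a1, chr10:76725995-76726294, minus strand: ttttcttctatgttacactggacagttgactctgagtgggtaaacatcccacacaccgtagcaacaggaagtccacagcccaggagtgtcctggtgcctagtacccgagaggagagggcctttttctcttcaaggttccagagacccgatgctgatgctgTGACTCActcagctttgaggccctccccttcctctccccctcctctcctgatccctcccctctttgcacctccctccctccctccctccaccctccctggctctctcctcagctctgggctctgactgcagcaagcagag
Col6a2, chr10:76623355-76623654, minus strand: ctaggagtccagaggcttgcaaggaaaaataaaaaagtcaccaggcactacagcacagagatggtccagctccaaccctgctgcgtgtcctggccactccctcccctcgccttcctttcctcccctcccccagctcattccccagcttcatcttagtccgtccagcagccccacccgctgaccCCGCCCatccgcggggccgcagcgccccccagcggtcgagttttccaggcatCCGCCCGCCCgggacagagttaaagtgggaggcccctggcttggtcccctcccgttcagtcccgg
Col6a2, chr10:76623581-76623880, minus strand: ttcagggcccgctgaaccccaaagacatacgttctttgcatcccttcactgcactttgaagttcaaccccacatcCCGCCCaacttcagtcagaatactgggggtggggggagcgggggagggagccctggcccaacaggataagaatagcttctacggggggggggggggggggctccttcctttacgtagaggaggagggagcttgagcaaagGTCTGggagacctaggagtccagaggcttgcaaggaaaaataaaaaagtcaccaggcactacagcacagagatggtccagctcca
Col6a3, chr1:90843922-90844221, minus strand: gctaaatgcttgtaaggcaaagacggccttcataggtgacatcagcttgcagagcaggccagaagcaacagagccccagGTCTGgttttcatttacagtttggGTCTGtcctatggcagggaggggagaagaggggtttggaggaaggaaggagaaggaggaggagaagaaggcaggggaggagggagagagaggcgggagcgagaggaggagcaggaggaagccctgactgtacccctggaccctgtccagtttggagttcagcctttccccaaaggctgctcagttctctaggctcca
The motifs were the full cAMP response element TGACGTCA, its core TGACG, the AP-1 element TGANTCA, the SMAD-type element GTCTG and the GC box GGGCGG. The core lies inside the full element and was counted there too. Col6a1 held 1 AP-1 match, whose first base lay at -90 from the start. The first Col6a2 window listed held 3 GC boxes, at -67, -15 and -11, and the last pair overlap. The other Col6a2 window held 1 GC box at -175 and 1 SMAD-type match at -35, and Col6a3 held 2 SMAD-type matches at -171 and -147. Neither the full cAMP response element nor its core occurred in the 4 windows, which says only that those letters are absent from these windows. Among all 32851 promoter windows of that length, 1.79% held the full element, 20.8% its core, 7.81% the AP-1 element, 49.6% the SMAD-type element and 35.7% the GC box. GC content was 57.3% for Col6a1, 64.3% and 56.7% for the Col6a2 windows and 56.3% for Col6a3, against a median of 52.7% over all windows.

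Levels are given in TPM, a share of all transcripts corrected for gene length. Creb1, the mouse gene for CREB, was measured first as a check on the labels. The labels do not give the species or the extent of the constructs, and whether their transcripts are counted as mouse Creb1 was not tested. Its level in the control and TGFβ libraries was 20.8 and 23.1 TPM in Vector, 25.8 and 30.1 in KCREB, and 34.0 and 38.3 in S133A-KCREB. It was 11.6 and 9.68 TPM in the line labelled WT-CREB, 9.04 and 5.89 in R314A-CREB, 6.59 and 4.43 in S133A-CREB, and 7.92 and 6.01 in S133A/R314A-CREB. These 4 lines lay below Vector although labelled as overexpressing, so every line name is used here as the line labelled so. Across the 14 libraries, Creb1 had a Pearson r on log2(TPM + 1) of -0.31 with Col6a1 and -0.33 with Col6a2 (Spearman rho -0.16 and -0.24), with each line entering as 2 libraries. The tables hold no read counts, and depth was judged from the usual ratio of coverage (mean reads per base) to FPKM, which ran from 5.05 to 10.1. Lens markers were present in part: of 11 listed, 8 reached a mean of 1 TPM, Cryab and Pax6 among them, while Foxe3, Cdh1 and Gja1 did not reach 1 TPM in any library.

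Col6a1, the α1 chain, was the most abundant chain in every library. In control cells its level was 253 TPM in S133A-CREB, 179 in WT-CREB, 99.9 in R314A-CREB, 78.3 in KCREB, 72.9 in Vector, 44.3 in S133A-KCREB and 25.2 in S133A/R314A-CREB. With TGFβ it was 171 TPM in WT-CREB, 124 in S133A-CREB, 42.4 in Vector, 32.0 in KCREB, 31.9 in R314A-CREB, 23.4 in S133A-KCREB and 21.3 in S133A/R314A-CREB. The intact lines stood above the other 5 lines in both conditions and did not overlap with them. The lowest intact line was 1.79 times the highest other line in control cells and 2.92 times with TGFβ. Vector lay inside the range of the K and R314A lines in control cells and just above that range with TGFβ. Mean levels were 108 ± 80.8 TPM in control and 63.7 ± 59.2 TPM in TGFβ libraries (SD, n = 7 lines), so the spread between lines was of the size of the mean. No line has a second library of the same treatment, so neighbours in these orders cannot be separated by replicate error.

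Col6a2, the α2 chain, is encoded next to Col6a1 and pairs with it in the heterotrimer. Its control levels were 143 TPM in S133A-CREB, 87.8 in WT-CREB, 24.8 in Vector, 14.4 in R314A-CREB, 14.2 in KCREB, 3.25 in S133A/R314A-CREB and 2.92 in S133A-KCREB. With TGFβ they were 70.8 TPM in WT-CREB, 36.9 in S133A-CREB, 7.10 in Vector, 3.47 in KCREB, 1.75 in R314A-CREB, 1.25 in S133A/R314A-CREB and 0.531 in S133A-KCREB. The intact lines were again highest in both conditions with no overlap, by 3.54 times over the next line in control and 5.20 times in TGFβ libraries, and the next line was Vector in both. The highest library was 270 times the lowest for Col6a2, against 11.9 times for Col6a1. The lowest one rested on a coverage of 0.48 reads per base, so its level is the least precise. Means were 41.5 ± 53.6 TPM in control and 17.4 ± 26.9 TPM in TGFβ libraries (SD, n = 7 lines).

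Col6a3, the α3 chain, is the longest of the 3 and is needed for the classical trimer. It was at 4.80 TPM in the control and 2.99 TPM in the TGFβ library of S133A-CREB, with coverages of 8.11 and 8.81 reads per base. The 2 libraries of KCREB list it at 0. In the 10 libraries of the 5 other lines it ran from 0.0305 TPM in the WT-CREB control to 0.151 TPM in S133A/R314A-CREB with TGFβ, at coverages of 0.0671 to 0.324. Those 5 lines overlap throughout. S133A-CREB thus stood apart from all other lines in both conditions, including WT-CREB with the same bZIP state, whose 2 libraries held 0.0305 and 0.119 TPM. Its level was still 1.90% of that of Col6a1 in the control and 2.42% in the TGFβ library, and at most 0.71% in all other libraries. The 3 chains that resemble α3 were lower still, with highest levels of 0.131 TPM for Col6a4, 0.0307 TPM for Col6a5 and 0.0174 TPM for Col6a6.

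**Figure D1:**
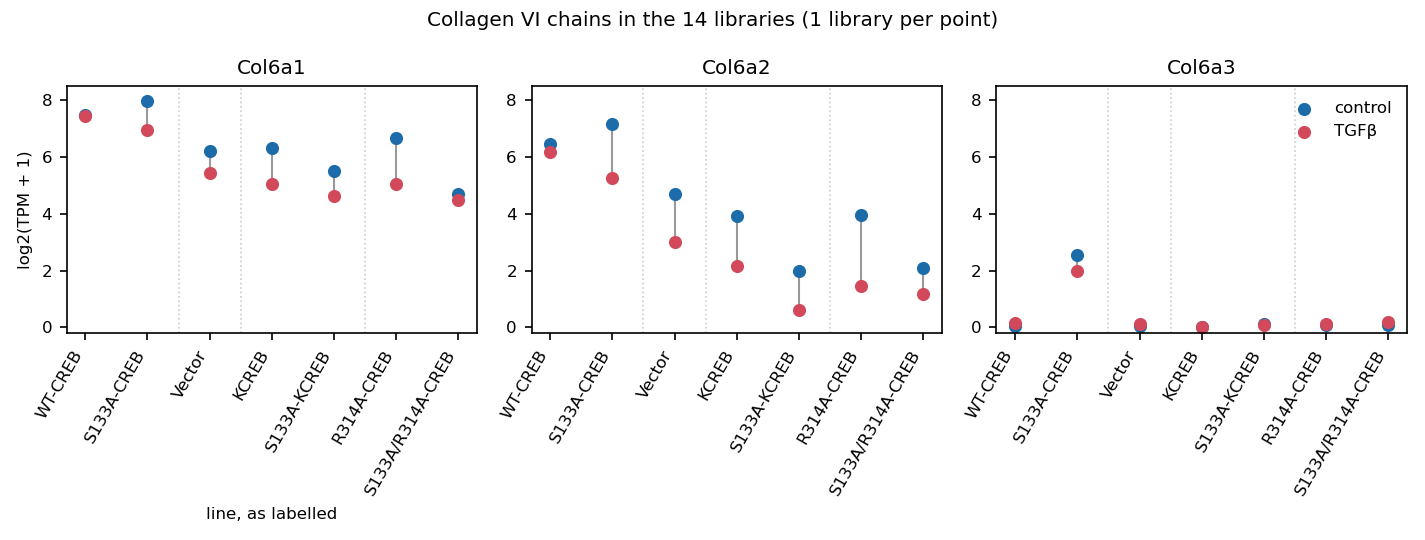
Levels of Col6a1, Col6a2 and Col6a3 as log2(TPM + 1) in the 14 libraries, 1 point per library (blue control, red TGFβ), with lines grouped as intact, Vector, K and R314A by dotted lines. The intact lines, at the left, are highest for Col6a1 and Col6a2, every red point of those genes lies under its blue one, and Col6a3 is above 1 TPM in S133A-CREB alone.

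With TGFβ, Col6a1 and Col6a2 were lower in every line. These differences, and the bZIP comparison that follows, are among the values the genes were selected on. The TGFβ to control ratio of Col6a1 was 0.582 in Vector, 0.956 in WT-CREB, 0.408 in KCREB, 0.319 in R314A-CREB, 0.489 in S133A-CREB, 0.528 in S133A-KCREB and 0.846 in S133A/R314A-CREB. The difference on the log2(TPM + 1) scale, which understates differences of low genes, averaged -0.84 (SE 0.21, n = 7 lines) and ran from -1.62 in R314A-CREB to -0.06 in WT-CREB. For Col6a2 the ratio was 0.286 in Vector, 0.807 in WT-CREB, 0.245 in KCREB, 0.122 in R314A-CREB, 0.258 in S133A-CREB, 0.182 in S133A-KCREB and 0.384 in S133A/R314A-CREB. Its log2 difference averaged -1.49 (SE 0.27, n = 7 lines) and ran from -2.48 in R314A-CREB to -0.31 in WT-CREB. For both genes R314A-CREB had the lowest ratio and WT-CREB the highest, and in every line the Col6a2 ratio was under the Col6a1 ratio. Both genes were lower in 7 of 7 lines, as were 15.9% of the 12927 genes that averaged 1 TPM or more. Among Vector, KCREB and S133A-KCREB, where Creb1 was at or above its Vector level, both were lower in 3 of 3, as were 28.8% of the 12927 genes. Col6a3 had a log2 difference of -0.54 in S133A-CREB and between -0.04 and 0.12 elsewhere, at levels too low to read a direction.

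By bZIP state, the K lines averaged 2.10 log2 units below the intact lines for Col6a1, with differences of -1.84 in control and -2.37 in TGFβ libraries. The R314A lines were at -2.06 and -2.44. For Col6a2 the K lines were at -3.87 in control and -4.32 with TGFβ, and the R314A lines at -3.81 and -4.39. Both comparisons use the same 2 intact lines, so their likeness is not independent. Against Vector, Col6a1 in the control cells was 2.46 times as high in WT-CREB and 3.47 times in S133A-CREB, and between 0.346 and 1.37 times in the K and R314A lines. With TGFβ the Col6a1 ratios were 4.04 and 2.92 in those intact lines and 0.503 to 0.754 in the K and R314A lines. For Col6a2 they were 3.54 and 5.78 in the intact lines in control cells and 9.98 and 5.20 with TGFβ. In the K and R314A lines they were 0.118 to 0.579 in control cells and 0.0748 to 0.489 with TGFβ. All of these ratios share the single Vector library of their condition. Col6a1 and Col6a2 both had the 2 intact lines above all 5 others in both conditions, as did 5.24% of the 12927 genes tested, and Col6a3 did not. The K and R314A lines were at -1.14 and -1.06 for Col6a3 as means over both conditions, and without S133A-CREB at -0.05 and 0.02, so these differences rest on that line. In culture as in tissue, fewer cells of a kind and less RNA per cell cannot be told apart in such bulk libraries.

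The S133 state was tested on the chains because, unlike bZIP state and TGFβ, it was not a contrast they were chosen by. The levels and TGFβ differences of the same lines were known at that choice, so these fits are not independent of it. The S133A difference was fitted with limma over the 6 CREB lines with the bZIP state as a term, on Col6a1 and Col6a2, the 2 of 3 chains averaging 1 TPM or more. Averaged over treatments, Col6a1 in S133A-CREB minus WT-CREB was 0.02 log2 units, in S133A-KCREB minus KCREB -0.62, and in S133A/R314A-CREB minus R314A-CREB -1.25. The same differences were -0.11, -1.75 and -1.07 for Col6a2. The direction was thus shared by the K and R314A pairs, while the intact pair lay near 0 as a mean of unlike values: in that pair S133A-CREB was the higher line in control cells and the lower one with TGFβ for both genes. The fitted S133A difference was -0.62 ± 0.26 for Col6a1 (SE, 95% interval -1.29 to 0.05) and -0.98 ± 0.35 for Col6a2 (SE, -1.86 to -0.09), each with limma's adjusted p = 0.809. Without R314A-CREB or its S133A partner the difference was -0.30 for Col6a1 and -0.93 for Col6a2, without either K line -0.62 and -0.59, and without either intact line -0.94 and -1.41, and none of these passed. The difference of the TGFβ effect with S133A was 0.27 ± 0.46 for Col6a1 (interval -0.92 to 1.46) and 0.12 ± 0.67 for Col6a2 (-1.60 to 1.83), each with limma's adjusted p = 0.999. Neither passed the test, and the intervals allow sizeable differences in either direction for the interaction. Over all genes limma called 0, or 0%, for S133A and 0, or 0%, for the interaction, with 753 and 476 genes at an unadjusted p under 0.05, and no other tool was run. Without the R314A-CREB line or its S133A partner the interaction was at -0.29 for Col6a1 and -0.61 for Col6a2, and without WT-CREB or S133A-CREB at 0.88 and 0.99.

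Levels of Col6a1 and Col6a2 followed each other across libraries. The Pearson r of their log2(TPM + 1) was 0.97 over 14 libraries (Spearman rho 0.95), 0.95 over the 7 control and 0.99 over the 7 TGFβ libraries. It was 0.90 over the 10 libraries without the intact lines, and 0.95 for the 7 TGFβ differences. These are descriptions, because each line enters with 2 libraries and both genes were chosen for the same pattern. They did not move in proportion. Col6a2 was 56.6% of Col6a1 in S133A-CREB, 49.0% in WT-CREB, 34.1% in Vector, 18.1% in KCREB, 14.4% in R314A-CREB, 12.9% in S133A/R314A-CREB and 6.59% in S133A-KCREB in control cells. With TGFβ it was 29.9%, 41.4%, 16.7%, 10.9%, 5.49%, 5.86% and 2.27% in the same lines. The share was therefore highest where both chains were highest, and lower with TGFβ in 7 of 7 lines. The deposited coverage puts the share lower, from 0.948% to 22.8%, because Col6a2 had 0.400 to 0.419 of the usual coverage per FPKM in every library, while Col6a1 had 0.999 to 1. By coverage the share was also lower with TGFβ in 7 of 7 lines.

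**Figure D2:**
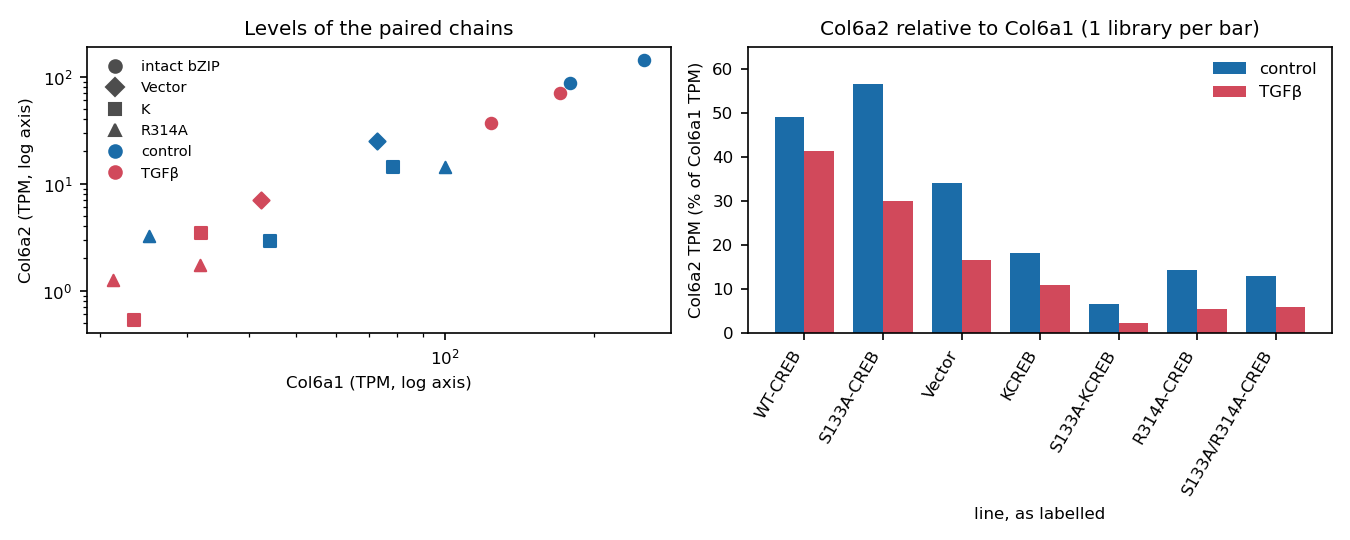
Left, Col6a2 against Col6a1 in TPM on log axes, 1 point per library, with shapes for the bZIP state and colours for the treatment. Right, Col6a2 as a percentage of Col6a1 in TPM, 1 bar per library; the bars run from 2.27% to 56.6%, and the TGFβ bar is the lower one in all 7 lines.

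Genes near the chains were listed by position, among those with a mean of at least 1 TPM. Lss, an enzyme of cholesterol synthesis 38.6 kb from Col6a2, was lower with TGFβ in 7 of 7 lines and had an r of 0.49 with the mean of the chains on the log2(TPM + 1) scale over 14 libraries. The nearer 4930483K19Rik, an unnamed transcript 33.5 kb away, was also lower in 7 of 7 lines, with an r of 0.76 at 0.599 to 3.74 TPM. It overlaps Lss by position, so the 2 may not be separate observations. Across the 12927 genes tested, 15.9% were lower in 7 of 7 lines. Pcbp3, an RNA-binding protein gene 35.8 kb from Col6a1, and the folate carrier Slc19a1, 306 kb away, were lower in 0 of 7 lines, with r of 0.41 and 0.13. The intact lines were not above all others for any of these 4 genes, a pattern that 5.24% of all genes tested had. Around Col6a3 the nearest genes with that mean were Cops8 at 154 kb and Ackr3 at 551 kb on one side. On the other side they were Lrrfip1 at 153 kb and Ube2f at 406 kb. The r of these genes on both sides lay between -0.67 and 0.10.

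The genes most like the chains were taken by Pearson r with the mean log2(TPM + 1) of Col6a1, Col6a2 and Col6a3 over the 14 libraries, among 1405 genes averaging 5 TPM or more with an SD of at least 0.5. Ptx3, a secreted pentraxin of innate defence, had an r of 0.93. Its mean level was 59.4 TPM in the 4 intact libraries and 18.0 TPM in the 10 others. Zfp972, a zinc finger gene, had an r of 0.93, at 8.52 and 3.92 TPM. Ms4a4d, a membrane-spanning protein gene, had an r of 0.92 and the widest gap of the 5, at 205 and 11.1 TPM. Sh3kbp1, an adaptor of receptor endocytosis, had an r of 0.92, at 38.1 and 21.0 TPM, and Gramd4 an r of 0.90, at 116 and 67.8 TPM. The choice by r favours genes that are high in the intact lines, so it is no finding that all 5 had both intact lines above the others in both conditions. Ms4a4d, Sh3kbp1 and Gramd4 were lower with TGFβ in 7 of 7 lines, Ptx3 in 6 and Zfp972 in 5. Of all genes tested, 15.9% were lower in 7 of 7. The choice by r also favours genes that are lower with TGFβ, so these counts are no finding either. The next gene had an r of 0.89, so these 5 are no separate class. By chain, the r of the 5 was 0.87 to 0.94 with Col6a1, 0.88 to 0.92 with Col6a2 and 0.53 to 0.61 with Col6a3. The likeness is thus mainly to Col6a1 and Col6a2. The least alike were Cd24a, a surface glycoprotein, at -0.92, Fut9, a fucosyltransferase, at -0.90, and Lncenc1, a long noncoding RNA, at -0.86.

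**Figure D3:**
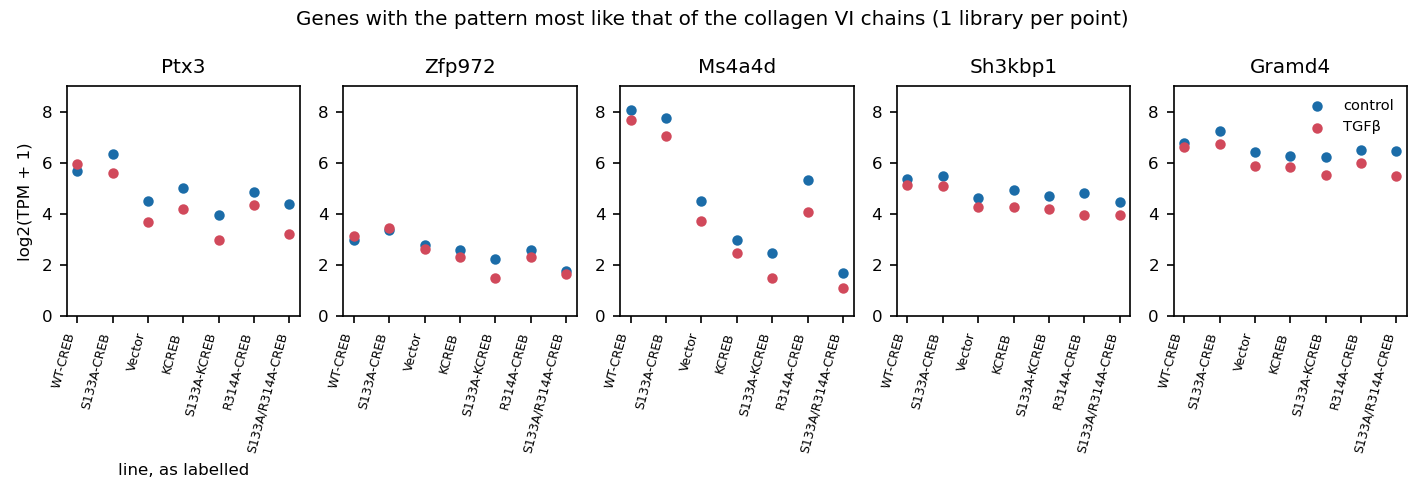
Levels of the 5 genes with the highest r with the mean of the 3 collagen VI chains, as log2(TPM + 1), 1 point per library (blue control, red TGFβ). The intact lines WT-CREB and S133A-CREB, at the left of each panel, lie above the other 5 lines, most widely for Ms4a4d.

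The genes that collagen VI works with were read from 5 lists, 64 tested genes in all, with the TGFβ effect fitted by limma within lines. In this fit 31 of the 64 were higher and 14 lower with TGFβ, against 24.1% higher and 21.4% lower over all 12927 genes, whose median difference was 0.02. Without the line block, 8 and 2 passed. Among cell surface receptors, 11 of 13 were tested, 3 were higher and 4 lower, and the median was 0.01. Itga3, an integrin chain of epithelial adhesion, fell by 0.77 ± 0.11 on the log2 scale (SE, n = 7 lines), from 329 ± 96.2 to 194 ± 56.8 TPM (SD), with limma's adjusted p = 0.00083. Itga2, a collagen-binding integrin chain, rose by 0.99 ± 0.17, with limma's adjusted p = 0.00163. The collagen receptor kinases Ddr2 and Ddr1 fell by 0.23 ± 0.05 and 0.37 ± 0.09, with limma's adjusted p of 0.00558 and 0.00851. Cspg4, the NG2 proteoglycan that binds collagen VI, was under 1 TPM, at means of 0.0268 TPM in control and 0.0729 TPM in TGFβ libraries.

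Of 18 matrix partners, 9 were tested, 4 were higher and 3 lower, with a median of 0.32. Fn1, fibronectin, rose by 2.03 ± 0.23, from 325 ± 371 to 1010 ± 596 TPM (SD, n = 7 lines), with limma's adjusted p = 0.000289. Fbn1, fibrillin, rose by 0.58 ± 0.11 (limma's adjusted p = 0.00248). The microfibril protein Mfap5 fell by 0.76 ± 0.14 (0.00274) and perlecan, Hspg2, by 0.31 ± 0.11 (0.044). In 4 of these 9 genes, Bgn, Fn1, Fbn1 and Fmod, the intact lines lay above all others in both conditions, as for Col6a1 and Col6a2 and for 5.24% of all genes tested. Of these 4, Fn1, Fbn1 and Bgn rose with TGFβ, Bgn by 0.82 ± 0.11 (limma's adjusted p = 0.000518), and Fmod, at 0.32 ± 0.22, did not pass.

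Collagen folding and secretion genes stood at 12 higher and 3 lower of 19 tested (22 listed), with a median of 0.20. Serpinh1, the collagen chaperone HSP47, rose by 0.61 ± 0.07 (SE, n = 7 lines; limma's adjusted p = 0.000276). The prolyl hydroxylase subunit P4ha2 rose by 0.73 ± 0.08, the lysyl hydroxylase Plod2 by 0.97 ± 0.14 and the secretion factor Mia2 by 0.40 ± 0.05, with limma's adjusted p of 0.000313, 0.000802 and 0.000418. Of 7 proteases, 6 were tested, 4 were higher and 0 lower, with a median of 0.40. Mmp9, a gelatinase, rose by 2.55 ± 0.41, Mmp14, a membrane-bound collagenase, by 0.28 ± 0.06, and the procollagen proteinases Bmp1 and Tll1 by 0.51 ± 0.12 and 0.52 ± 0.15. Their adjusted p in limma's fit were 0.00137, 0.00469, 0.00846 and 0.0215.

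Of 38 other collagens, 20 were tested, 8 were higher and 4 lower, and the median was 0.21. Col1a1 and Col5a2, chains of fibrillar collagens, rose by 1.78 ± 0.28 and 0.66 ± 0.06 (SE, n = 7 lines), with limma's adjusted p of 0.00112 and 0.000134. The basement membrane chains Col4a6 and Col4a5 fell by 0.99 ± 0.10 and 0.62 ± 0.07, with limma's adjusted p of 0.000223 and 0.000339. The mean differences of Col6a1 at -0.84 and Col6a2 at -1.49 stood beside that of Col4a6 at the low end of the 20 other collagens tested. The 2 chains were chosen with these differences known, so their place in this order is no finding. In 4 of the 20, Col4a1, Col5a1, Col5a2 and Col18a1, the intact lines lay above all others in both conditions, against 5.24% of all genes tested. Col4a1 averaged 13.6 ± 35.3 TPM in control and 12.6 ± 32.0 TPM in TGFβ libraries (SD, n = 7 lines). Its K minus intact difference was -3.67 with all lines and -6.44 without S133A-CREB. Its high level is thus mainly that of WT-CREB, with S133A-CREB far lower.

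**Figure D4:**
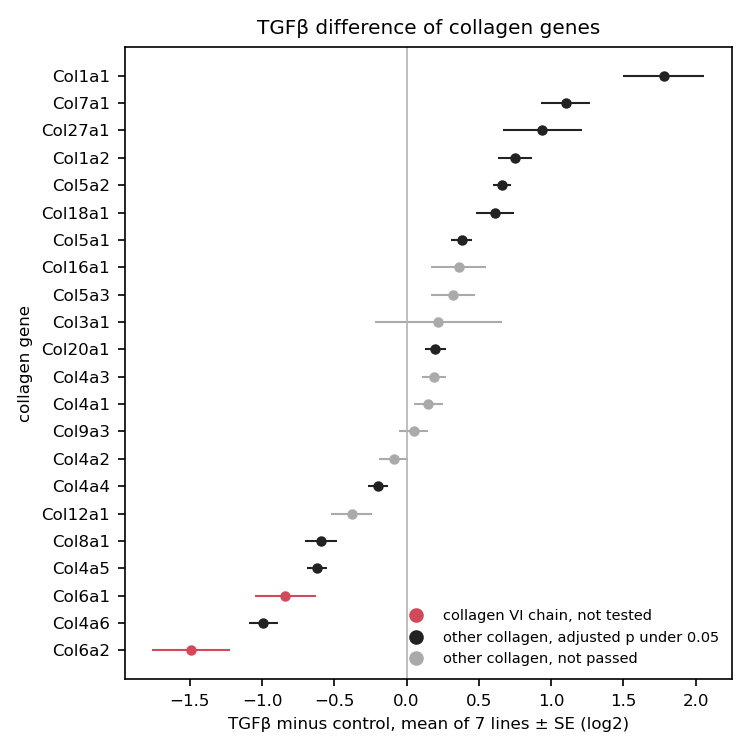
TGFβ minus control on the log2(TPM + 1) scale for the 20 other collagens tested and for Col6a1 and Col6a2, as means over 7 lines with SE bars; black genes passed limma's adjusted p under 0.05, grey ones did not, and the collagen VI chains (red) were not tested. Col6a2 has the lowest mean of the 22 genes, at -1.49, and Col1a1 the highest, at 1.78. The collagen VI chains were chosen with their differences known. Their bars are the plain SE of the 7 differences and those of the other collagens are limma's SE, so the bar widths are not directly comparable.

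For the bZIP state, limma called 0 genes for K against intact, or 0%, and 0 for R314A against intact, or 0%, with 1310 and 821 genes at an unadjusted p under 0.05, and no other tool was run. None of the 64 related genes was called in either fit. The matrix partners had a median K difference of -1.46 and the other collagens of -0.99, against -0.03 over all genes. The medians for R314A were -1.25 and -0.45, against -0.02. Receptors and folding genes had medians of -0.07 and 0.03 for K and -0.23 and 0.11 for R314A. Without S133A-CREB, Antxr1, a receptor gene known to bind collagen VI, was called for K at 4.25 ± 0.37 (limma's adjusted p = 0.0486). In that fit Col4a1 and Col4a2 were also called, at -6.44 and -5.21 for K and at -6.17 and -4.96 for R314A. With all lines, Antxr1 was at 3.76 ± 0.37 for K, Col4a1 at -3.67 ± 1.45 and Col4a2 at -2.73 ± 1.30, with limma's adjusted p of 0.228, 0.496 and 0.554. Over all 12927 genes, the fit without S133A-CREB called 10 higher and 9 lower for K and 12 higher and 9 lower for R314A. Without WT-CREB, Col1a1 was called for K at -4.92 ± 0.34 (limma's adjusted p = 0.0261), against -3.08 ± 0.97 with all lines (0.427), and 0 genes were called higher and 16 lower over all. Each of these fits leaves a single intact line, which is assumed to vary as the others do.

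Markers of other cell types were read beside the order by line. Of 10 fibroblast markers, 8 never reached 1 TPM, 2 of these being at 0 in every library. The summed level of the list was 145 to 358 TPM in the 4 intact libraries and 79.0 to 156 TPM in the 10 others. It was carried by the growth factor receptors Pdgfra, at 23.3 to 27.5 against 7.48 to 16.7 TPM, and Pdgfrb, at 118 to 333 against 70.3 to 143 TPM. The summed lens list was 458 to 793 TPM in the intact and 560 to 2330 TPM in the other libraries, with Cryab at 244 to 485 against 351 to 1670 TPM. With TGFβ 6 of the 8 lens markers tested were lower and 0 higher, against 21.4% lower and 24.1% higher over all genes tested. Sox2 was at -1.14 ± 0.09 and Cryab at -1.02 ± 0.17 on the log2 scale (SE, n = 7 lines), with limma's adjusted p of 7.36e-05 and 0.00152. Endothelial markers summed to at most 3.64 TPM and macrophage markers to at most 14.3 TPM. Muscle markers summed to 12.7 to 113 TPM in control and 86.1 to 214 TPM in TGFβ libraries. The 2 tested went opposite ways: Tnnt2 rose by 1.69 ± 0.29 and Des fell by 0.44 ± 0.09, with limma's adjusted p of 0.00177 and 0.00396. The part of these markers in the levels of Col6a1 and Col6a2 was not tested.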

How the data were processed

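RNA of 14 cultures was sequenced as mRNA libraries on a DNBSEQ-T7 instrument, per the labels' protocols, and lines and treatments were taken from the titles. The growth protocol names neither K line. The submitters' processing notes name the tools edgeR, STAR 2.7.6a and StringTie 2.0.4 and the build GRCm39, without their roles. For strandedness and annotation release, no source used here gives a value. The tables hold TPM, FPKM and per-base coverage as deposited by the authors, per the file headers, and lines that share a gene identifier were summed. They hold no counts, so no count model and no counting intervals were used. A listed 0 can be a failed estimate.

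Values were taken as log2(TPM + 1), and the 12927 genes averaging 1 TPM or more were tested with limma 3.58.1 in R 4.3.3. The TGFβ fit had the line as a block, which pairs the 2 libraries of a line. The S133A, K and R314A fits used line means, and the interaction line differences, of the 6 CREB lines. P-values are two-sided, adjusted by Benjamini-Hochberg over all genes tested, with a threshold of 0.05. In the TGFβ fit they measure the spread of the within-line differences. In the S133A, K, R314A and interaction fits they measure the spread between lines that the fitted terms leave. Each construct has 1 line, and nothing in the labels says that cultures were repeated. All fits were run on simulated data with known changes to check the size of the estimates. How many of those changes were recovered is not given here. With 6 lines, the lack of a call for S133A, K, R314A or the interaction does not show that no gene differs.

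The members and lists were chosen with earlier results of these data known. Named were the 3 chains, the 3 similar chains, up to 4 genes per list with the smallest p for TGFβ at a mean of at least 5 TPM, 2 neighbours on each side of each locus, and the 5 most and 3 least alike genes, passing over predicted genes and pseudogenes. Cspg4, Bgn, Fmod, Antxr1 and the collagens counted by order of lines were named after their values were seen. Alternatives tried were no filter or one at 5 TPM, pseudocounts of 0.1 and 5, TPM without mitochondrial genes, scaling by median of ratios, FPKM, no intensity trend in the variance (the fits reported have it), control or TGFβ libraries alone, no bZIP term, no line block and leaving out each line. Added after the data were seen were the chain share by coverage and the means over Vector, KCREB and S133A-KCREB.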

Additional observations from a re-analysis of the deposited data

Results flagged for a closer look

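Col6a3 in S133A-CREB lay far from the other 6 lines by Dixon's criterion at the 95% level in 3 of 11 sets of 7 values examined. Its level was 4.80 TPM among the control libraries and 2.99 TPM among the TGFβ libraries, where no other line exceeded 0.151 TPM. Its TGFβ minus control difference, -0.538 on the log2(TPM + 1) scale, was also apart from those of the other lines, which are all at levels near 0. The 3 values come from 2 libraries of 1 line and are not separate observations. The chains were chosen with these values known, so the criterion only describes them. Its usual rate of chance flags, about 1 in 20 sets, does not apply here. Col6a1 and Col6a2 were also at their highest control levels in S133A-CREB, at 253 and 143 TPM, without standing apart by this criterion.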

How the results depend on the processing

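Of 234 recomputed values, 217 were counted as kept. Fitted effects had to keep their direction and their side of the threshold, and counts of related genes to stay within a set ratio. Other values had to move by less than the spread between lines. For Col6a3 that spread holds S133A-CREB, so its K and R314A differences without that line were counted as kept. The mean TGFβ differences of Col6a1 and Col6a2 were among the 217 under every alternative run. They ran from -0.97 to -0.71 and from -1.69 to -1.32 when each line was left out. The K minus intact difference of Col6a2 was -3.15 with a pseudocount of 5, and that of Col6a3, -1.14 as reported, was -2.65 with a pseudocount of 0.1 and -0.05 without S133A-CREB. The R314A minus intact difference of Col6a3 was 0.02 without S133A-CREB, against -1.06 with it, and that of Col6a2 was -3.17 with a pseudocount of 5 and -3.48 in FPKM. The S133A by TGFβ interaction on Col6a2 was -0.08 with a pseudocount of 0.1, and with lines left out it ran from -0.61 to 0.99, and that on Col6a1 from -0.29 to 0.88. The S133A difference ran from -0.94 to -0.30 for Col6a1 and from -1.41 to -0.59 for Col6a2 with lines left out. Of the related genes, 31 were higher and 14 lower with TGFβ, against 8 and 2 without the line block, and 9 were lower with no filter on low values. With lines left out, 0 to 3 related genes were called for K and 0 to 2 for R314A; over all 12927 genes, 16 were called for K without WT-CREB, all lower, and without S133A-CREB 10 higher and 9 lower for K and 12 and 9 for R314A. By coverage in place of TPM, the median share of Col6a2 in Col6a1 moved from 18.1% to 7.38% in control and from 10.9% to 4.35% in TGFβ libraries. Col6a2 had 0.400 to 0.419 of the usual coverage per FPKM in every library, so this shift is common to all lines. The spread between lines, by which it was counted as kept, cannot judge such a shift. The cause was not tested. The labels give no replicate numbers, and the line is what pairs a control with a TGFβ library. Depth limits Col6a3 outside S133A-CREB and Col6a2 in the TGFβ library of S133A-KCREB.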
